A study of Mus musculus with 7 samples.

Results

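Jun, Fos and their relatives form AP-1, a family of transcription factors. Several of its genes, Fos and Jun among them, are switched on within minutes of a growth or stress signal. The family was followed here as 10 named genes, Jun, Junb, Jund, Fos, Fosb, Fosl1, Fosl2, Batf, Batf3 and Jdp2, and 9 of them were measured by a probeset with a single annotated symbol, out of 22180 such genes on the array. Fosl1 has only a probeset that the annotation also assigns to Ccdc85b, so no value is given for it. Jund has 2 probesets and the brighter one represents it. The family was picked out because Jun was among the genes with the largest lower values after deletion of Lockd. The difference of Jun between the groups is therefore a description, and so are those of its relatives in the same contrast. All entered the fit over the whole array, but no p-value of a member is given as support, and counts of members past a threshold only stand beside those of the array.

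The cells were G1E, an erythroid cell line of the mouse without functional GATA1, which keeps it at an immature precursor stage. The tested cells carried a CRISPR/Cas9 deletion of Lockd (genotype "Lockd deletion", 4 arrays). The control cells had an intact gene (genotype "Lockd WT", 3 arrays). Both were the same line in the same medium, and the series calls them clones. The labels do not say whether replicates came from separate cultures or clones, or whether control cells went through the editing. Lockd makes a long non-coding RNA and lies beside Cdkn1b, the gene of the cell cycle inhibitor p27, and a deletion removes the DNA together with the RNA.

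AP-1 proteins share a basic region that grips DNA and a leucine zipper that pairs them. Jun proteins pair with each other or with Fos proteins, whereas Fos proteins need a partner. The usual binding site is a short palindrome. Jun is activated by the stress kinase JNK, and the transcripts of Fos, Jun, Junb and Fosb are unstable because AU-rich elements mark them for decay. Batf, Batf3 and Jdp2 are small members without the long activation domains of Jun and Fos, and they often oppose or redirect them. In the red cell lineage, forced expression of Jun is known to hold back the maturation of mouse erythroleukaemia cells.

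The promoters of Jun, Fos and Junb are shown because Jun was the member whose groups stood apart, while Fos, its classic partner, and Junb, its close relative, overlapped between the groups. Each is the stretch of 250 bases before the transcription start, 5′ to 3′ on the gene's own strand, from RefSeq on GRCm38.p6. The Jun stretch is chr4:95052223-95052472 on the minus strand, that of Fos chr12:85473640-85473889 on the plus strand, and that of Junb chr8:84978749-84978998 on the minus strand. Capitals mark every match to the motifs named after them.
Jun: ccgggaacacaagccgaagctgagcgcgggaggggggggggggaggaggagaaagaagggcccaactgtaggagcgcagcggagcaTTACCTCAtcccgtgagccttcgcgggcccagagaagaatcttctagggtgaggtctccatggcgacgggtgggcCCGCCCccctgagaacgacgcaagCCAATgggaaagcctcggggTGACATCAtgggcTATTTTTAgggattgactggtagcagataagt
Fos: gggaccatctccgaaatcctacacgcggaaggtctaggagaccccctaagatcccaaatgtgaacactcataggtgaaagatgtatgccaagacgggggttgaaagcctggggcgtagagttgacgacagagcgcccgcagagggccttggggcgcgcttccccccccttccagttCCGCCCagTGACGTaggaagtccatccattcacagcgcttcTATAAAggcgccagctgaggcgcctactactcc
Junb: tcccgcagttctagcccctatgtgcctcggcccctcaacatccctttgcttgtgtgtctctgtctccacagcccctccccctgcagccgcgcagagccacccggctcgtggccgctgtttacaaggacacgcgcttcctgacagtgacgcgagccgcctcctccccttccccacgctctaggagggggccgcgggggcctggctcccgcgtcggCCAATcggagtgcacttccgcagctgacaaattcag

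Read from its start, the Jun promoter held 3 elements long known from it. The distal site TTACCTCA lay 164 to 157 bases before the start, the proximal site TGACATCA 45 to 38 bases before it, and the core of a MEF2 site, TATTTTTA, 32 to 25 bases before it. On both strands, these letters occurred in 0.728%, 2.93% and 2.45% of the 32851 promoter windows of the same length in the table, and in no other window of a measured member. A CCAAT box (33.8% of windows) and a GC box GGGCGG (32.7%) completed the Jun matches. Fos held a GC box, the short cAMP response element TGACGT 66 to 61 bases before its start (6.47% of windows, those of Jdp2 and Batf among them) and a TATA box TATAAA (12.4%), while Junb held a CCAAT box. Neither the AP-1 site TGANTCA (6.75% of windows) nor the full cAMP response element TGACGTCA (1.55%), which contains the short one, was found in any of the 11 windows of the 9 measured members. These are matches of letters in one short window and say nothing of binding. Fos, Jdp2 and Batf lie next to one another on chromosome 12, with only non-coding genes and a pseudogene between them in GRCm38.p6. Junb and Jund are both on chromosome 8.

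The arrays were alike as a whole, with correlations of 0.993 to 0.996 over the 23521 probesets with a single symbol. Principal component 1 (29.9% of the variance) set control replicate 2 against the other arrays, and its median over these probesets was 5.60 against 5.67 to 5.74 on the other 6 arrays. Lockd itself averaged 4.89 ± 0.48 (SD, n = 4) in knockout cells and 7.91 ± 0.12 (SD, n = 3) in control cells on the log2 scale. Of 17 markers of erythroid precursors, 15 lay above the median level of all probesets, among them Gata2 at 12.42 ± 0.05 in knockout and 12.46 ± 0.08 in control cells. The embryonic globin genes Hbb-bh1 and Hba-x lay below it. No mast cell, megakaryocyte, myeloid, lymphoid or stromal marker passed the test. Of the mast cell markers, 7 of 10 were lower, with Tph1 at -2.03 (SE 0.29), and their mean log2 level was 5.69 to 6.26 on knockout and 5.84 to 6.61 on control arrays. Of the stromal and endothelial markers, 10 of 11 were higher. Their mean log2 level was 5.404 to 5.599 on knockout and 5.199 to 5.520 on control arrays. Over all 23521 probesets, 11238 were lower and 12283 higher. Above the median level of all probesets lay 4 of the 10 mast cell markers and 3 of the 11 stromal and endothelial markers. The part of either list in the results was not tested. In RNA from bulk cultures, fewer cells of a kind and less RNA per cell cannot be told apart.

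Jun, the founding member, read 6.15, 6.08, 6.44 and 5.83 on knockout replicates 1 to 4, against 7.03, 6.61 and 7.43 on control replicates 1 to 3, all log2 RMA values. Every knockout array lay below every control array, with a gap of 0.17 between the highest knockout array, replicate 3, and the lowest control array, replicate 2. The means were 6.13 ± 0.25 (SD, n = 4) in knockout and 7.03 ± 0.41 (SD, n = 3) in control cells. The difference was -0.90 (SE 0.20, 95% interval -1.35 to -0.45), which is a change of -46.4% on the linear scale with an interval of -60.9% to -26.6%. Left out in turn, single arrays moved the difference to between -1.11, without control replicate 2, and -0.70, without control replicate 3.

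Junb, which often restrains Jun in dividing cells, showed no such gap. It read 8.82, 8.96, 9.15 and 8.82 on knockout arrays and 9.003, 9.001 and 8.85 on control arrays, so the control arrays lay inside the knockout range. The difference was -0.01 (SE 0.10, 95% interval -0.23 to 0.21).

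Jund, the Jun gene that is expressed broadly and without strong induction, read 9.03, 9.34, 9.13 and 9.15 on knockout arrays and 9.29, 9.07 and 9.42 on control arrays. The groups overlapped, and the difference was -0.10 (SE 0.10, 95% interval -0.33 to 0.14). It was -0.19 without control replicate 2 and -0.02 without control replicate 3. The dimmer Jund probeset, with a mean of 6.91, differed by -0.08 (SE 0.08) and overlapped likewise.

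Fos, the immediate early partner of Jun, lay to the other side. It read 6.27, 6.60, 6.42 and 6.53 on knockout arrays, against 6.23, 6.03 and 6.52 on control arrays, and control replicate 3 sat among the knockout arrays. The difference was 0.20 (SE 0.13, 95% interval -0.09 to 0.49). It depended on single control arrays, with 0.08 without control replicate 2 and 0.33 without control replicate 3.

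Fosb, a relative induced together with Fos, read 5.91, 6.02, 5.92 and 5.69 in knockout cells and 5.98, 5.58 and 6.04 in control cells. Both the highest and the lowest array were controls. The difference of 0.02 (SE 0.12, 95% interval -0.26 to 0.31) turned to -0.12 without control replicate 2.

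Fosl2 encodes Fra-2, a Fos protein without the strong activation domain of Fos. Its values were 8.05, 8.14, 7.79 and 7.87 on knockout arrays and 8.30, 7.89 and 8.03 on control arrays. The groups overlapped, with a difference of -0.11 (SE 0.12, 95% interval -0.38 to 0.17), which was 0.00 without control replicate 1.

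Among the small members, Batf, a partner of Jun proteins and of IRF4 in lymphocytes, read 5.71, 6.02, 5.97 and 5.80 on knockout arrays and 5.92, 5.90 and 5.96 on control arrays. The 3 control arrays lay within the knockout range, and the difference was -0.05 (SE 0.09). Batf3, best known from dendritic cells, read 4.96, 4.93, 4.70 and 5.04 on knockout arrays and 4.80, 4.40 and 4.98 on control arrays. Its groups overlapped at a difference of 0.18 (SE 0.14), and most of it rested on control replicate 2, since it was 0.02 without that array. Jdp2, a repressor that pairs with Jun, read 4.76, 4.50, 4.77 and 4.85 in knockout and 4.81, 4.77 and 4.68 in control cells, with a difference of -0.03 (SE 0.09). Batf3 and Jdp2 were dim, and they were the 2 members without 3 arrays over a log2 value of 5, so a change there may be understated.

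**Figure D1:**
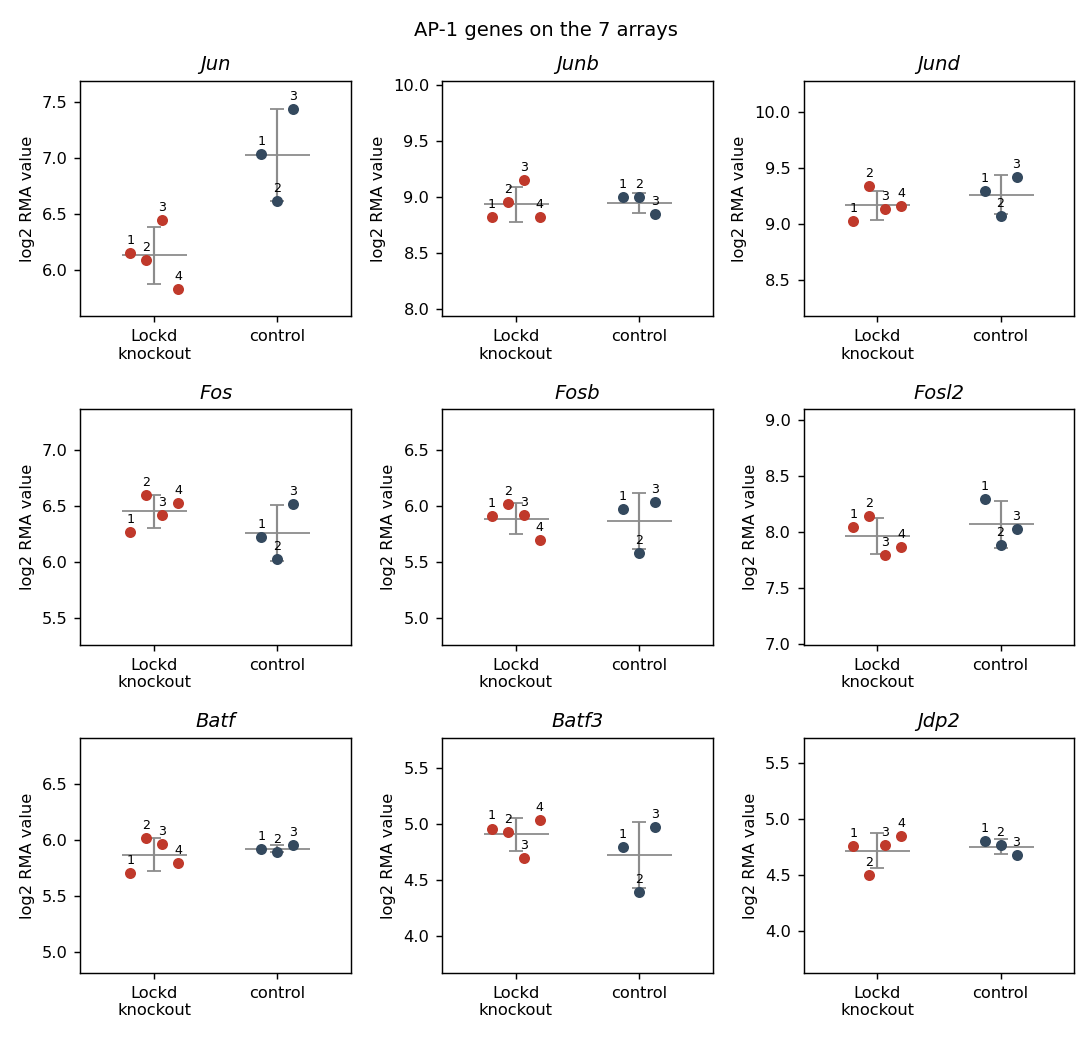
Log2 RMA values (y axis, each panel spanning the same range) of the 9 measured AP-1 genes on 4 Lockd knockout arrays (red, left) and 3 control arrays (dark, right), numbered by replicate. Lines are group means and bars ± 1 SD. Jun is the panel in which the groups do not overlap, with knockout arrays at 5.83 to 6.44 and control arrays at 6.61 to 7.43.

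Across the family, 6 of the 9 measured members were lower and 3 higher, with a median difference of -0.03 beside 0.01 over all 23521 probesets, of which 47.8% were lower. With an array left out, the number lower was between 4 and 6, and Junb, Fosb, Fosl2, Batf and Jdp2 changed sign. Apart from Jun, differences ran from -0.11 for Fosl2 to 0.20 for Fos, with 95% intervals that together spanned -0.38 to 0.50. Smaller changes than that are not bounded by these arrays. In limma with Benjamini-Hochberg adjustment, 0 of the 9 members passed an adjusted p of 0.05, where 0.0085% of all probesets did. At an unadjusted p under 0.05 there was 1 member, Jun, where 4.64% of probesets were, 2.37% lower and 2.27% higher, and the groups did not overlap for 1 member, again Jun, where 5.15% of probesets did so in either direction 2.5% with knockout lower and 2.65% with knockout higher. Since Jun was picked from this contrast, nothing is read from these counts.

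**Figure D2:**
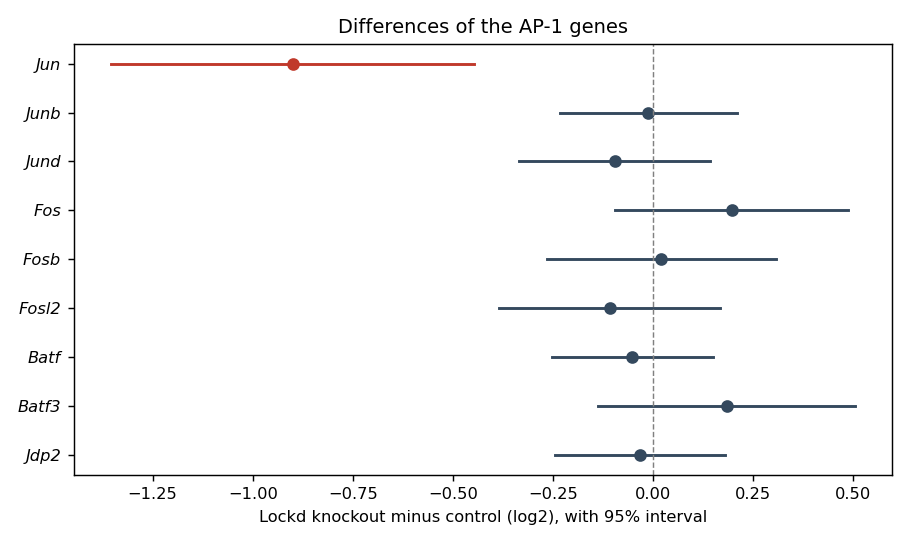
Knockout minus control differences (x axis, log2) of the 9 measured AP-1 genes, as points with 95% intervals from the limma fit. Jun, in red, lies at -0.90 and the other 8 genes between -0.11 and 0.20.

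Scatter among replicates is not free of how Jun was picked, since a choice by the size of a difference favours genes that vary widely, and it is given as a description. Jun had the widest spread of the family, with a pooled SD of 0.32 within groups, larger than that of 97.1% of all probesets and of 95.7% of the 1000 probesets nearest to it in mean level. The other members had SDs between 0.11 for Batf and 0.22 for Batf3. Among the 1000 probesets nearest in level, Jund lay at 89.8%, Fosl2 at 83.9%, Junb at 83.4%, Batf3 at 83.0%, Fosb at 74.7% and Fos at 73.4%. Batf and Jdp2, at 28.8% and 32.9%, varied less than most genes of their level.

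Correlations between members within groups went both ways, with 23 of the 36 pairs above 0 and 13 below. Deviations from the group mean over the 7 arrays correlated at a median of 0.278 over these pairs, from -0.711 for Junb with Batf3 to 0.936 for Fos with Jund. Fosb was closest to Jun, at 0.818 (Spearman 0.679). Jdp2 had Pearson correlations below 0 with all 8 other members, from -0.661 with Batf to -0.0149 with Junb. Its Spearman correlations were above 0 with Junb (0.071) and Batf3 (0.214) and below 0 with the rest. The points share the arrays and any shift of a whole array, and pairs that share a gene are not independent.

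For 7 of the 9 members, all but Junb and Jdp2, the lowest control value was that of replicate 2. There Jun deviated from its group mean by -0.41, Batf3 by -0.33, Fosb by -0.28 and Fos by -0.23. Control replicate 3 was the highest control array for 6 members. Knockout replicate 2 was the highest knockout array for 5 members, Jund, Fos, Fosb, Fosl2 and Batf, and the lowest for Jdp2. Such counts were not made over all probesets, so nothing particular to the family is read from them. The median over the probesets with a single symbol was 5.60 on control replicate 2, against 5.71 and 5.73 on control replicates 1 and 3. With control replicate 2 left out, the median correlation between members was 0.0581, while Jun with Fosb kept 0.598 and Fos with Jund 0.885.

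**Figure D3:**
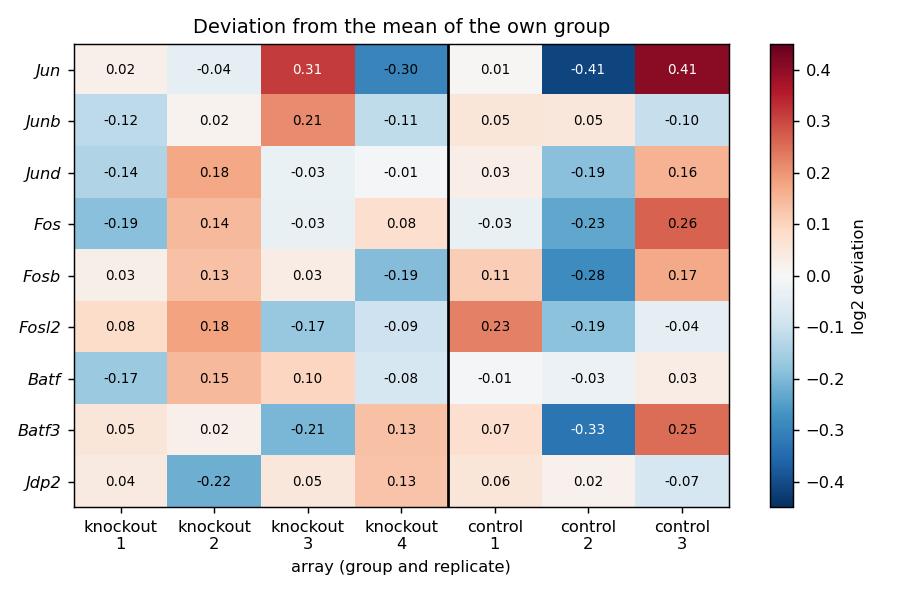
Deviation of each AP-1 gene (rows) on each array (columns, knockout left of the line) from the mean of its own group, in log2 units as printed in the cells. Control replicate 2 is below its group mean for 7 of the 9 genes, a count that was not made over all probesets. Jun has the largest deviations, from -0.41 to 0.41.

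Genes with a profile most like that of Jun over all 7 arrays were Fat2, with a Pearson correlation of 0.987 (Spearman 0.964), Wnt2 at 0.975, Fads3 at 0.970, Prl7a1 at 0.967 and Nxpe4 at 0.956. They were the 5 highest of 8843 genes with an SD above the median, of which 0.158% exceeded 0.9, so they were chosen for likeness and carry no test. Of these, Fads3, a fatty acid desaturase family gene, read 10.65, 10.63, 10.75 and 10.47 in knockout and 10.96, 10.75 and 10.97 in control cells, and Wnt2, a signalling ligand gene, differed by -0.32 (SE 0.12). Judged by deviations from the group means, those most like Jun were Tmem98 at 0.994, Wnt2 at 0.984, Scn11a at 0.977, Dnah17 at 0.972 and Trex2 at 0.972, and those most like Fos were Dact3 at 0.994, Ifit1bl2 at 0.985, Scrg1 at 0.985, Dglucy at 0.983 and Rpe65 at 0.980. Of the 8844 genes ranked by deviations, 93 exceeded 0.9 with Jun and 73 with Fos. The genes named by deviations were thus also chosen for likeness and carry no test. Wnt2 was the gene named for Jun by both measures. None of the other AP-1 genes was among the genes named for likeness. Of those named, Fat2, Prl7a1, Scn11a, Dnah17, Ifit1bl2, Scrg1 and Rpe65 were dim, under a log2 value of 5 on all 7 arrays.

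The genes that act around AP-1 are not members and were tested in the same limma fit. Of 195 distinct genes in 7 lists, 0 passed an adjusted p of 0.05 in either direction, and 7 had an unadjusted p under 0.05, 5 lower and 2 higher, where 4.64% of all probesets did, 2.37% lower and 2.27% higher. The groups did not overlap for 10 of the 195, 5 lower and 5 higher, where 5.15% of all probesets did so. Genes named for such values are therefore described as single values, since these counts are near those of the whole array. The median difference of the 195 was -0.00, beside 0.01 over all probesets, and 101 of the 195 were lower. The smallest adjusted p in any list was 0.999, and the values that follow did not pass.

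The JNK cascade, which phosphorylates Jun, had 13 of 23 measured genes lower and a median of -0.02. Map3k1, the gene of a kinase that feeds into JNK, read 9.66, 9.65, 9.64 and 9.65 on knockout arrays, against 10.04, 9.75 and 9.91 on control arrays. All knockout arrays were below all control arrays and close to one another, and the difference was -0.25 (SE 0.08, unadjusted limma p 0.0122, adjusted p 0.999). Mapk10, the JNK gene of nerve cells, lay the other way but was dim. It read 4.76, 4.81, 4.85 and 4.82 in knockout and 4.65, 4.63 and 4.46 in control cells. The difference was 0.23 (SE 0.07, unadjusted limma p 0.00985). Mapk8, which encodes the widespread JNK1, differed by 0.04 (SE 0.10), a sign that turned without knockout replicate 4 or control replicate 3. Gadd45g, a stress gene whose protein activates an upstream kinase, was at -0.21 (SE 0.09). Map3k9, a mixed lineage kinase gene that was dim on every array, was at 0.24 (SE 0.12).

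The SRF and MEF2 axis carries growth signals to the Fos and Jun promoters, and 7 of its 14 measured genes were lower, with a median of 0.01. Mef2d, a MEF2 factor gene, read 9.76, 9.82, 9.76 and 9.79 on knockout and 9.96, 9.89 and 9.86 on control arrays without overlap, a difference of -0.13 (SE 0.06, unadjusted limma p 0.0714). Srf, the serum response factor gene, differed by 0.05 (SE 0.07), Rps6ka5, a kinase gene of the MSK type, by 0.16 (SE 0.10), Mapk14, the p38 alpha gene, by 0.10 and Mapk7, the ERK5 gene, by -0.10.

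Control of the AP-1 proteins and transcripts showed no member past the threshold either. Among 25 genes of turnover and coregulators, 11 were lower and 14 higher, with a median of 0.02. Fbxw7, whose protein marks phosphorylated Jun for destruction, differed by 0.07 (SE 0.08). Irf4, the partner of Batf, was dim on every array and differed by -0.18 (SE 0.09). Nfatc1 differed by -0.13, Nfatc2 by 0.10 and Ep300, a coactivator gene, by -0.08. Among 20 genes of AU-rich mRNA decay, 12 were lower, with a median of -0.02. Zfp36, whose protein binds AU-rich elements and is itself an immediate early product, read 7.49, 7.92, 7.59 and 7.33 on knockout and 8.06, 7.67 and 7.96 on control arrays, with overlap at a difference of -0.32 (SE 0.15, unadjusted limma p 0.0631). Cnot7, a deadenylase gene, lay at -0.12 (SE 0.06), Tob2 at 0.10 and Elavl1, whose protein stabilises AU-rich transcripts, at 0.06 (SE 0.06).

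Other bZIP genes, which include further pairing partners, spread evenly, with 16 of 36 lower, a median of 0.01 and none at an unadjusted p under 0.05. Mafg, a small Maf gene, was at -0.11 (SE 0.07), Creb3 at 0.12, Tef at -0.12 and Creb3l1 at -0.10. Atf3, a stress-induced partner of Jun, differed by 0.05 (SE 0.10), and that sign turned without control replicate 3. Atf2, which pairs with Jun on cAMP type elements, differed by -0.03 (SE 0.07), and Nfe2, an erythroid partner of the small Maf proteins, by -0.02 (SE 0.08). Atf2 and Nfe2 were chosen after their values were seen.

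Immediate early genes other than AP-1 were compared because they answer the same signals as Fos and Jun. Of 46 measured, 24 were lower, with a median of -0.02. Egr1, the classic companion of Fos, read 10.41, 10.62, 10.69 and 10.65 in knockout and 10.57, 10.53 and 10.62 in control cells. Its difference of 0.02 (SE 0.08) turned sign without knockout replicate 3, knockout replicate 4 or control replicate 2. Dusp1, a phosphatase gene that ends MAP kinase signals, read 6.74, 7.17, 7.14 and 6.72 on knockout arrays, against 7.16, 7.62 and 7.25 on control arrays, and touched the control range with 1 array. The difference was -0.40 (SE 0.15, unadjusted limma p 0.0308), and it was -0.26 without control replicate 2. Ier3, a survival gene, read 8.69, 9.01, 8.07 and 8.37 in knockout and 9.26, 8.87 and 9.01 in control cells, with overlap at a difference of -0.51 (SE 0.21, unadjusted limma p 0.0365). Arc lay at 0.18 (SE 0.08) without overlap.

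Textbook targets of AP-1 from other cell types had 21 of 37 genes lower and a median of -0.01. Il1b, an inflammatory cytokine gene, read 5.15, 5.42, 5.28 and 5.33 on knockout arrays, against 5.84, 5.46 and 5.89 on control arrays. It was dim too, with a mean level of 5.48 that exceeded 45.9% of all probesets. The groups did not overlap, though knockout replicate 2 and control replicate 2 nearly met, and the difference was -0.43 (SE 0.12, unadjusted limma p 0.00543, adjusted p 0.999). Vegfa, an angiogenic factor gene, read 10.57, 10.35, 10.29 and 10.38 in knockout and 10.85, 10.80 and 10.43 in control cells, at -0.29 (SE 0.12). Egfr, at a dim 5.31 in knockout and 5.14 in control cells on average, differed by 0.17 (SE 0.07). The still dimmer Fasl differed by 0.15 (SE 0.08).

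**Figure D4:**
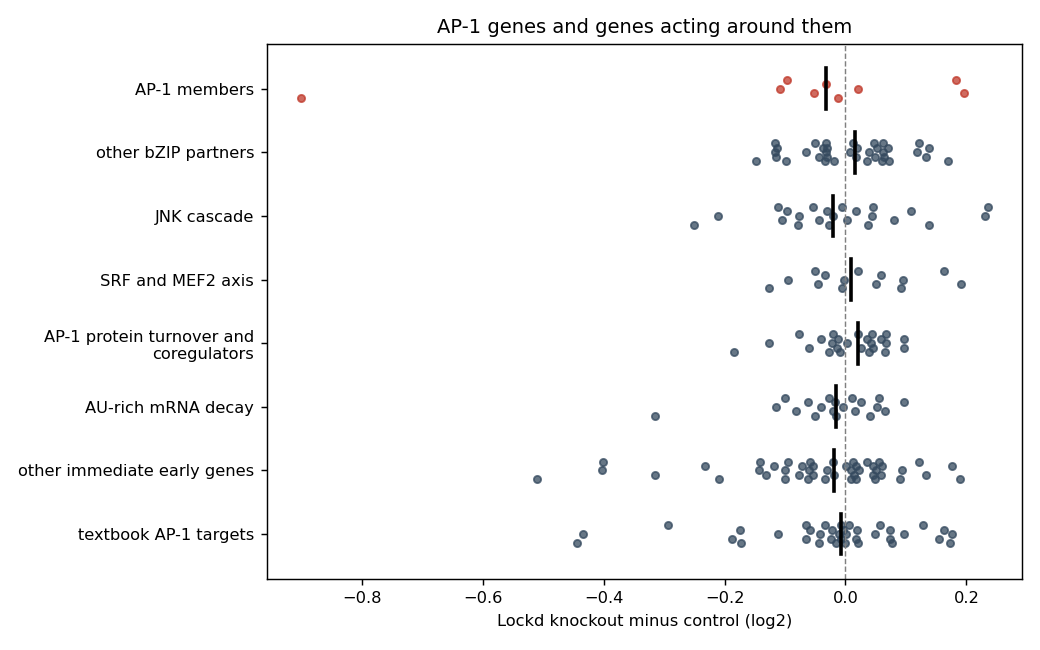
Knockout minus control differences (x axis, log2) of the 9 AP-1 genes (red) and of the genes in 7 lists around them (dark), each point a gene and each black bar the list median. Medians lie between -0.03 and 0.02, Jun is the leftmost point at -0.90, and no other gene shown lies below -0.51.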

How the data were processed

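Total RNA from 7 samples of G1E cells, 4 with a Lockd deletion and 3 controls, was hybridised to the Mouse Gene 2.0 ST array of Affymetrix. The authors deposited log2 values from the RMA algorithm, per the series' design text, and the submitters' processing notes name Affymetrix Expression Console. Its version and a genome build were not given in the sources used here. RMA values carry no detection call. Titles gave the groups and the replicate numbers. If replicates were not separate cultures, p-values measure only the spread between these samples. No 2 arrays were identical, and their number limits the precision.

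Of 41345 probesets, 23521 had a single symbol in the platform annotation and entered a limma 3.58.1 fit in R 4.3.3 (lmFit and eBayes, knockout minus control, two-sided, Benjamini-Hochberg over these probesets, no filter and no covariate); 1814 had several symbols and 16010 were not listed. The probeset with the highest mean stood for a gene. Members, lists and motifs were chosen with earlier results of these data known. Named genes were all members, the 4 smallest p in each list, Egr1, Atf3, Mapk8, Srf and Fbxw7, and for likeness the 5 highest correlations, leaving out predicted genes and small RNAs. Intervals are at 95%. The fit was tested on simulated data. Promoters came from RefSeq on GRCm38.p6; protein sequences were not used here.

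Same-numbered samples of the titles deviated together at correlations of 0.0248, 0.0611 and -0.0980, so the numbers were not taken as pairs.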

Additional observations from a re-analysis of the deposited data

Results flagged for a closer look

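Among 55 named genes, the 4 knockout arrays of each were searched for an array set apart from the rest by Dixon's criterion, which flags about 1 in 20 groups by chance, and 2 genes had one. Atf3 read 6.23 on knockout replicate 1 and 6.51 to 6.55 on the other knockout arrays (gap over range 0.884). Arc read 7.33 on knockout replicate 4 and 7.11 to 7.14 on the others (0.849). No AP-1 member was set apart in this way. Lockd was not part of this search. It read 4.17 on knockout replicate 3 and 5.09 to 5.15 on the other knockout arrays. The control arrays are too few for this search.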

How the results depend on the processing

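The 17 alternatives left out each of the 7 arrays in turn or changed the probesets tested, the filter on dim probesets, the normalization, the variance model, the array weights, the probeset per gene or the block. For Jun, which was picked from this contrast, every knockout array lay below every control array. Leaving out or weighting arrays, or adding a block, therefore could not turn its sign. The Jun difference was below 0 in all 17 alternatives, between -1.11 and -0.70 with an array left out and between -0.96 and -0.80 otherwise. With a replicate block by title numbers it was -0.80. Knockout replicate 4 has no control of its title number, so that array does not enter this difference. By description numbers it was -0.91, set only by control replicates 2 and 3 and knockout replicates 1 and 2. No other array shared a description number with the opposite group. Title numbers did not pair the samples, no control array correlated best with its own number, and the description numbers of the shared pairs gave -0.171 and -0.0994. No member and no gene of the 7 lists passed an adjusted p of 0.05 under any alternative, the smallest for a named list gene being 0.505. List genes at an unadjusted p under 0.05 numbered 7, between 4, without knockout replicate 4, and 12, without knockout replicate 2 or control replicate 3, and 2 with the description block. The median correlation between members was between 0.0581 and 0.370 with an array left out. Signs turned for 4 named list genes. Egr1 ran from -0.016, without knockout replicate 3, to 0.078, without knockout replicate 1, and was -0.0064 with centred arrays, which shift every gene alike, -3e-04 with the title block and -0.059 with the description block. Mapk8 ran from -0.047, without control replicate 3, to 0.12, without control replicate 2, and was -0.0094 with the title block and -0.037 with the description block. Atf3 ran from -0.015, without control replicate 3, to 0.12, without knockout replicate 1, and Fbxw7 was -0.045 with the description block. With the description block, Ier3 was -0.09, Zfp36 -0.11 and Vegfa -0.15, against -0.51, -0.32 and -0.29 without it. These block values rest only on control replicates 2 and 3 and knockout replicates 1 and 2. Why signs turned under the other alternatives was not tested. Among the members, Fosl2 was 0.14 with the description block. Batf3 and Jdp2 had no value under the filters on dim probesets. Genome-wide, 2 probesets passed, those of Lockd and of its neighbour Cdkn1b, and 0 passed under 8 of the alternatives. Cdkn1b differed by -1.14 (SE 0.10, adjusted limma p 0.0251).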
